A study of Drosophila melanogaster with 4 samples.

Results

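Dense runs of HP1b clusters were examined in chromatin from adult fly heads. A cluster is a region that the study's authors listed as enriched by chromatin immunoprecipitation and sequencing (ChIP-seq). Enriched clusters of the authors' combined list on the long arms 2L, 2R, 3L, 3R and X were ordered by position, and neighbours were chained where the gap between them was at most 5000 bp. Chains of 5 or more clusters were kept, which gave 243 chains with 1501 clusters, out of 7504 clusters on the long arms and 7807 in the whole list. Members were thus chosen by their spacing in the combined list, so their number, their gaps and their density are described here and not tested.

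The flies were of the wild-type strain Oregon-R (Oregon-R-modENCODE), the stage is given as mixed adult, and the animals were raised in population cages, so that each sample pools the heads of many flies and the nuclei of all cell types of the head. The series held 2 immunoprecipitations with the HP1b antibody Q4114, called replicates 1 and 2 here, and 2 inputs of chromatin that was not immunoprecipitated. Each immunoprecipitation has its own cluster list, of 6687 clusters in replicate 1 and 6471 in replicate 2, while values of the inputs alone were not analysed here. Separate harvests of flies are not stated for replicates 1 and 2, so their spread may be technical, and since the lists hold no read totals, depth is unknown. The combined list rests on the same libraries as the replicate lists, which therefore do not test it independently.

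HP1b belongs to the heterochromatin protein 1 family. The chromodomain of these proteins binds methylated histone tails and the chromoshadow domain joins them to one another and to partner proteins. In Drosophila, HP1a is known mainly from heterochromatin, HP1c from euchromatin and HP1b from both. A cluster seen in bulk chromatin does not tell whether all nuclei carry the protein there or only a fraction of them.

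In a typical chain, clusters took up more sequence than the gaps between them. Chain spans in the combined list had a median of 26.1 kb (quartiles 21.6 and 32.8 kb) and ranged from 14.6 to 67.6 kb. Together they spanned 6.92 Mb, or 5.82% of the long arms, and held 21.5% of all cluster sequence on those arms. Clusters filled 63.1% of the summed chain spans, from 38.4% in a 2L chain of 6 clusters (11099943 to 11131770) to 94.6% in an X chain of 6 clusters (14955804 to 14986262). In the second of these no internal gap was longer than 817 bp, while the 2L chain had gaps of up to 4978 bp.

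The gaps inside chains were much like those of shorter runs. Over 1258 internal gaps the median was 1808.5 bp (quartiles 814.75 and 3161.5 bp), against 1825 bp over the 2306 gaps of runs of 2 to 4 clusters. In replicate 1 the internal gaps had the higher median (1932.5 against 1875 bp in runs of 2 to 4) and in replicate 2 the lower (1802 against 1915 bp). In the combined list, gaps under 1000 bp made up 30.3% of the internal gaps and 29.5% of those of the shorter runs. Centres of neighbouring members lay a median of 4741 bp apart (quartiles 3500 and 6139 bp). Chaining each replicate list by the same rule gave chains of the same build, with a median span of 26.6 kb ± 0.0191, a median internal gap of 1867 bp ± 92.3 and 63.1% ± 0.234 of the summed span under clusters (SD, n = 2).

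Chain length fell off steadily, and nothing in the counts set runs of 5 apart from runs of 4. The combined list held 409 runs of 3 clusters, 205 of 4, 105 of 5, 69 of 6, 31 of 7 and 18 of 8. Beyond that there were 9 chains of 9 clusters, 7 of 10, and 1 each of 11, 12, 13 and 14. Replicate 1 had 159 chains of 5 or more and replicate 2 had 146, that is 152.5 ± 9.19 (SD, n = 2). These held 14.8% of the long-arm clusters of replicate 1 and 14.2% of those of replicate 2, against 20.0% in the combined list. The combined list thus had more chains than either replicate, but it also listed more long-arm clusters, 7504 against 6484 and 6266. It rests on both libraries, so the spread between the replicates is no measure of that excess. Its chains were of nearly the same length, with a mean of 6.18 clusters against 6.03 and 6.08, and the chain with the most clusters of all, 15, was in replicate 2.

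**Figure D1:**
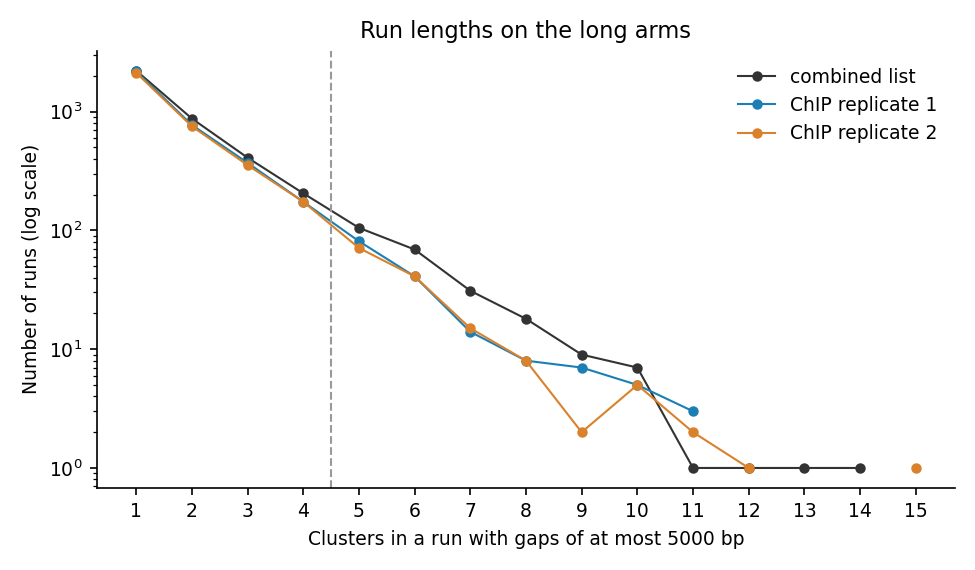
Number of runs on the long arms (log scale) by the number of clusters in a run, for the combined list and each ChIP replicate list, with points for counts above 0. The dashed line marks the smallest chain kept, and the combined list lies above both replicates from runs of 2 to runs of 10, with 105 chains of 5 clusters against 81 and 71.

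Close to the threshold, the longest internal gaps of chains were 4995 bp on X (before the cluster at 12576481), 4991 bp on 3R (before 7799567) and 4989 bp on 3R (before 22779286). The shortest gaps that bounded a chain were 5043 bp on 2R, 5044 bp on 3R and 5050 bp on 3L. Just outside by number, the 205 runs of 4 clusters had a median span of 17.1 kb with a median of 64.7% under clusters, and the 105 chains of 5 had 21.6 kb and 62.4%. The longest run of 4 spanned 37.5 kb of 2R, from 996395 to 1033858, which is longer than most chains of 5 or more.

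Chains were densest on X and sparsest on 3R and 3L. X held 75 of the 243 chains and 479 of the 1501 members, 21.4 members per Mb, while the autosomal arms together had 10.6 per Mb, from 9.28 on 3R and 9.45 on 3L to 12.1 on 2R. In the replicate lists X had 12.2 ± 0.694 chain members per Mb, 2R 8.30 ± 0.769, 2L 8.10 ± 0.154, 3R 6.36 ± 0.532 and 3L 4.46 ± 0.0288 (SD, n = 2 each). X stood above every autosomal arm by more than the spread of the replicates. The values of 2L and 2R differed by less than their spread, while 3R was below both of them and 3L below 3R in both replicates.

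The arms differed in chains by more than they differed in clusters. Per Mb, X exceeded the autosomal arms 1.22 times in clusters and 2.02 times in chain members in the combined list. In the replicates the ratios were 1.19 ± 0.00936 for clusters and 1.819 ± 0.00419 for chain members (SD, n = 2). A chain needs 5 or more clusters at successive short gaps, so chain members can rise faster than cluster density. How far this accounts for the ratios was not tested. 2L had the fewest clusters per Mb of the 5 arms in each of the 3 lists, 56.5 in the combined list, and 21.2% of them lay in chains, the highest share after X (28.9%). 3L had more clusters per Mb, 60.5, of which 15.6% lay in chains. In the replicates these shares were 16.8% ± 0.161 on 2L and 8.79% ± 0.113 on 3L (SD, n = 2). X chains were also somewhat longer, with a median span of 29.9 kb against 25.2 kb on the autosomal arms in the combined list, 29.5 against 25.6 kb in replicate 1 and 29.3 against 25.8 kb in replicate 2. The number of clusters per chain differed little, with a mean of 6.39 on X and 6.08 on the autosomal arms in the combined list.

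**Figure D2:**
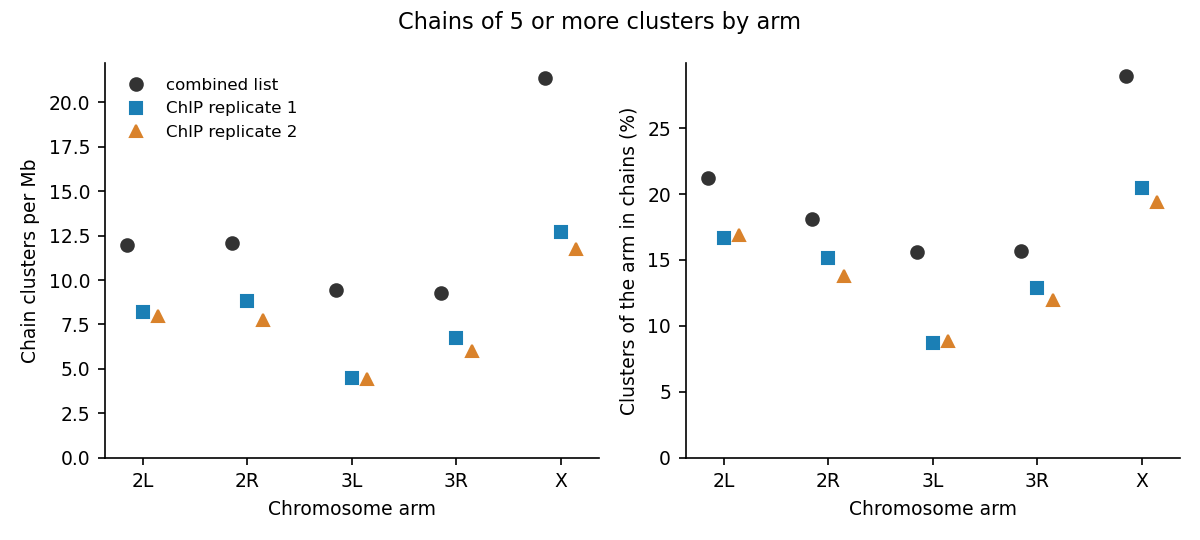
Chain clusters per Mb (left) and the percentage of an arm's clusters that lie in chains (right) on the 5 long arms, with 1 point for each list. X is highest and 3L lowest in both replicates in both panels, and in the combined list X reaches 21.4 chain clusters per Mb.

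Chains occurred in most 1 Mb windows of the long arms, with gaps of up to several Mb. Of 117 full windows, 104 held the centre of at least 1 chain of the combined list. The 13 windows without one lay on 3R (7 of 27), 3L (4 of 24), 2L (1 of 23) and 2R (1 of 21), and all 22 windows of X had one. The longest chain-free stretch between chains ran over 3.30 Mb of 3R from 486452 to 3787734, and the next over 2.56 Mb of 3L from 12531360 to 15086557. On X the longest was 1.14 Mb, from 9504107 to 10648831. The window with the most chains was X 17000001 to 18000000, with 6 chains and 43 members in the combined list but 2 chains in each replicate. In contrast, X 6000001 to 7000000 had 5 chains in each of the 3 lists.

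From telomere to centromere, the share of clusters in chains did not follow a simple slope. Each arm was divided into 10 bins of equal length, numbered from the telomere, and shares were taken over all 5 arms. In the combined list the share was 16.8% in bin 1, 25.6% in bin 4, 15.7% in bin 5 and 22.3% in bin 6. It was 26.4% in bin 8, 22.5% in bin 9 and 13.7% in bin 10, next to the centromere. Bins 4, 6 and 8 were the highest in each replicate, with 18.04%, 18.6% and 18.1% in replicate 1 and 17.5%, 19.04% and 19.3% in replicate 2. The lowest shares in both were in bin 2 (9.72% and 9.06%) and bin 10 (11.7% and 8.10%). The arms did not contribute evenly to bin 10, where 3L had 1 chain in the combined list and 0 in each replicate, while X had 5, 2 and 2.

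**Figure D3:**
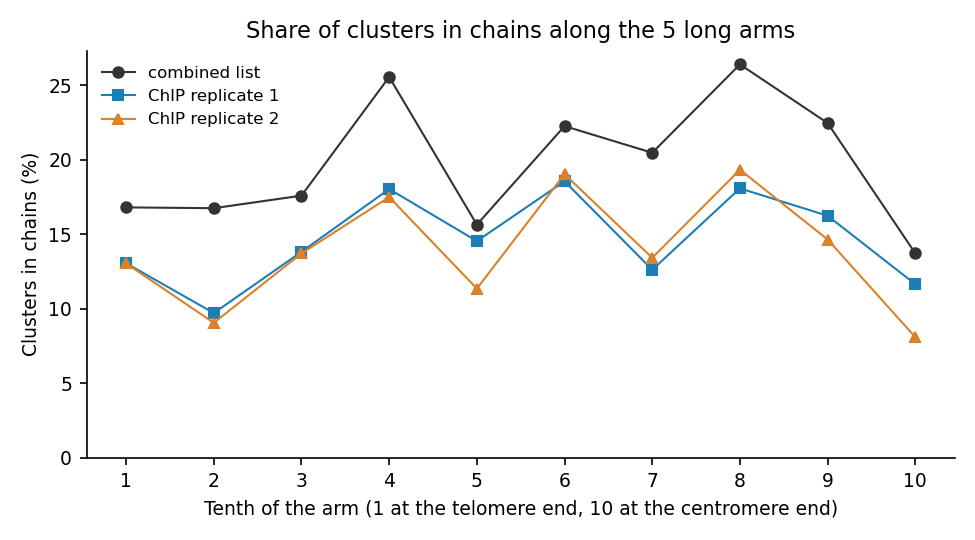
Percentage of clusters that lie in chains, in 10 equal bins of arm length from the telomere end (1) to the centromere end (10), over the 5 long arms, for the combined list and each ChIP replicate list. All 3 lists are high in bins 4 and 8 and low in bin 10, where the combined list has 13.7%.

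The chain with the most clusters lay on X from 13189613 to 13257238, 67.6 kb with 14 clusters that filled 70.4% of it. Its clusters were 1.06 to 6.08 kb wide, the gaps 92 to 4211 bp, and the authors' scores 0.342 to 3.16. The first cluster of the chain, 13189613 to 13192192, was its strongest, scoring 3.16 in the combined list and 3.19 in each replicate. Scores have no stated scale, and scores of different lists stand side by side here only as listed. Replicate 2 held this chain as 1 run of 15 clusters from 13189653 to 13257220. Replicate 1 had 12 clusters in it, and a gap of 5636 bp parted the first 2 from the other 10. The combined list bridged that gap with the cluster 13199159 to 13200217, found in neither replicate (score 0.473), and the cluster 13200397 to 13202526, found in replicate 2 only (score 0.590).

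The next chain was on 2R from 19726514 to 19787176, with 13 clusters over 60.7 kb. Of these, 12 were found in both replicates. The exception was cluster 10, 19771358 to 19773077, with a score of 0.109, the lowest of the chain. Without it the gap at that place was 5719 bp in replicate 1 and 5706 bp in replicate 2, just over the limit, so the replicates listed runs of 9 and 3 and of 10 and 3 clusters. The last cluster, 19784735 to 19787176, was the strongest in all 3 lists, with scores of 3.02 in the combined list, 2.89 in replicate 1 and 3.17 in replicate 2.

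The third chain was on X from 17576428 to 17638320, with 12 clusters over 61.9 kb. Replicate 2 had the same 12 clusters in 1 run. Replicate 1 lacked cluster 10, 17626341 to 17627835 (score 0.413 in the combined list), which left a gap of 8817 bp between runs of 10 and 2 clusters, the wide cluster 3 of the combined list (8.64 kb) being a pair in replicate 1. The strongest cluster, 17595718 to 17598559, scored 3.40 in the combined list, 3.28 in replicate 1 and 3.55 in replicate 2.

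A further 3 long chains had a matching run in each of the 3 lists. On 3R from 5375893 to 5418110, each of the 3 lists had 10 clusters in 1 run. The clusters of this chain were alike in width, 2.19 to 2.90 kb in the combined list, while the scores went from 0.441 for the fifth cluster to 2.93 for the seventh. The fifth and the seventh were also the lowest and the highest in both replicates, with 0.429 and 2.75 in replicate 1 and 0.510 and 3.14 in replicate 2. It was the 3R chain of highest summed score. On 3R from 12029901 to 12090833, 10 combined clusters filled 81.4% of 60.9 kb, and each replicate had 11, since the first, 12.2 kb wide in the combined list, was a pair of clusters in each replicate. On 3L, the longest chain ran from 9411606 to 9462857 with 9 clusters over 51.3 kb. Its strongest cluster, 9434279 to 9437440 (score 3.53), lay 23 bp from the next in the combined list and 496 bp in replicate 1, and both were 1 cluster of 7.06 kb in replicate 2.

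Of the remaining chains named by number of clusters, span or summed score, those on X at 6547288, on 2L at 19001741 and on 2L at 10291382 were 1 run in each replicate. The first had 10 clusters in the combined list and 11 in each replicate, the second 10, 11 and 10, and the third 9, 10 and 10. The 2L chain from 18676429 to 18715329 had 9 clusters in the combined list and in replicate 1, where they formed 1 run, and 8 in replicate 2, where the longest run held 7. The others were broken in at least 1 replicate. The 2R chain of 11 clusters at 7479639 kept a run of 5 in replicate 1 and of 10 in replicate 2, and the X chain of 10 at 17735155 kept runs of 6 in both. The 3R chain of 10 at 5564969 had all 10 clusters in each replicate, but cluster 3 was narrower there and left gaps of 6141 and 6038 bp and a longest run of 8, and the 2L chain of 10 at 2719661 had runs of 9 and 7.

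**Figure D4:**
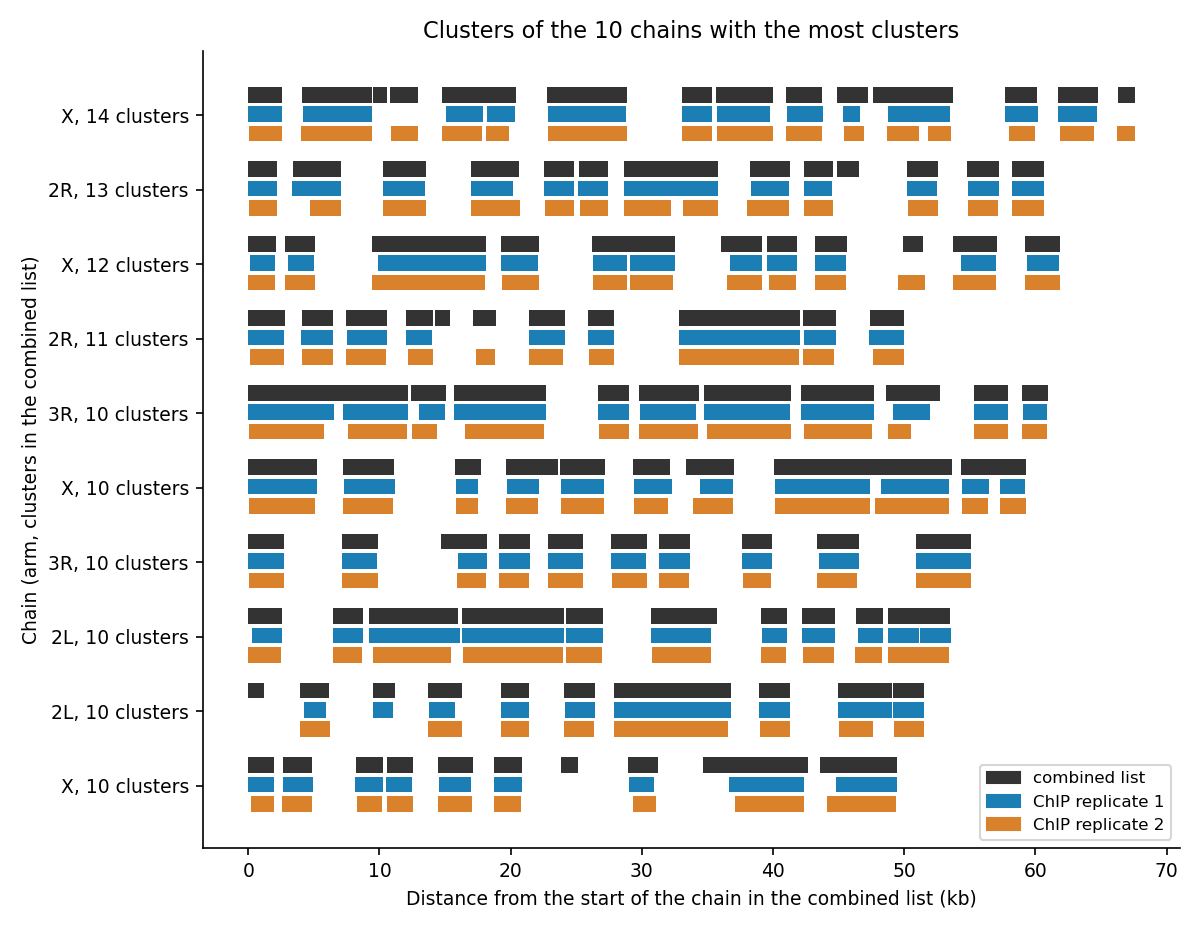
Clusters (bars) of the 10 chains with the most clusters (of 7 chains tied at 10 clusters, the 6 longest are drawn), by distance in kb from the start of the chain, with the combined list above ChIP replicates 1 and 2. Most bars line up in all 3 rows, and in the replicates of the 2R chain of 13 clusters the gap of 5719 and 5706 bp appears as a missing bar.

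Whether the replicates held the same chains depended on how strictly a match was set. Of the 243 chains of the combined list, 147 (60.5%) overlapped a chain of replicate 1 and 134 (55.1%) a chain of replicate 2 by at least 1 bp. There were 112 chains (46.1%) with a counterpart in both replicates, 35 in replicate 1 only, 22 in replicate 2 only and 74 (30.5%) in neither. With all members required to overlap clusters of one and the same replicate chain, 89 chains passed in replicate 1, 81 in replicate 2 and 53 in both. From the other side, 147 of the 159 replicate 1 chains (92.5%) and 134 of the 146 replicate 2 chains (91.8%) overlapped a combined chain.

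Chains without a counterpart were mostly short of 1 or a few clusters and were not empty in the replicates. Of the 96 chains that replicate 1 lacked, 52 missed 1 member, 35 missed more and 9 had all members found but in fewer clusters or with wider gaps. Of the 109 that replicate 2 lacked, these numbers were 57, 48 and 4. A run of 4 was left in 38 of the former and in 43 of the latter. A short chain has few members to lose before it falls under 5. Chains of 5 clusters had a counterpart in both replicates in 29 of 105 cases, those of 8 or more in 29 of 38, and those of 10 or more in 11 of 11. These counts rest on an overlap of at least 1 bp. A long chain thus counted even where a replicate held only a part of it, as with several chains named above. The 112 chains found in both replicates had a median span of 31.1 kb and a median of their clusters' median score of 1.17, and the 74 found in neither had 22.6 kb and 0.677.

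The arms differed in this as well. Counterparts in both replicates were found for 24 of 41 chains on 2R, 21 of 41 on 3R, 23 of 45 on 2L, 33 of 75 on X and 11 of 41 on 3L. X had 29 chains (38.7%) and 3L 17 (41.5%) with a counterpart in neither replicate, against 8 to 11 chains (19.5% to 24.4%) on each of the other arms. X stayed highest by chain members per Mb in each replicate list, where those chains are not counted.

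Single members were found more often than whole chains. Of the 1501 members, 1215 (80.9%) overlapped a cluster of both replicates and 130 (8.66%) overlapped neither, while over all 7504 clusters of the long arms 75.9% overlapped both and 10.4% neither. Replicate 1 held 87.01% of members, where the share of all clusters was 84.2%, and replicate 2 held 85.3%, where it was 81.3%. These shares lie close to those of all clusters. The 130 members found in neither replicate were narrow and low in score, with a median width of 1256.5 bp and a median score of 0.374, against 2575 bp and 1.24 for members found in both. The 156 members found in 1 replicate were wider, with a median of 1772 bp, but their median score, 0.312, was lower than that of members found in neither. The 130 were spread over 105 of the 243 chains, with at most 3 in a chain.

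Chains without a counterpart in a replicate still held clusters of it. Over all 243 combined chains, with or without a counterpart, replicate 1 clusters covered 55.8% and replicate 2 clusters 54.2% of the summed spans. The long arms as a whole had 14.9% and 14.3%, but the chains were chosen for dense clusters in a list from the same libraries. Cover above that of the arms therefore follows from the choice. By chain, the range was 24.02% to 81.8% in replicate 1 and 17.7% to 79.5% in replicate 2, so that no chain was without clusters in either. Across the 243 chains, the covered share in replicate 1 rose with that in replicate 2 (Pearson's r = 0.813, Spearman's rho = 0.811), a description across chains that share libraries and are not independent samples. The number of clusters within the chain's span was equal in both replicates for 125 chains, differed by 1 for 91 and by 2 or 3 for 27.

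**Figure D5:**
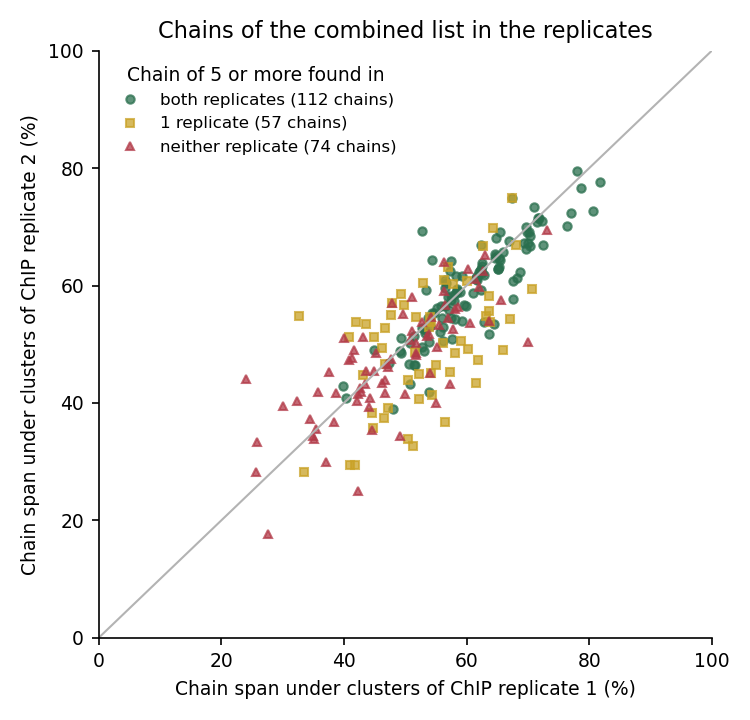
Percentage of the span of each of the 243 combined chains that lies under clusters of ChIP replicate 1 (x axis) and replicate 2 (y axis), marked by whether a chain of 5 or more was found in both replicates, in 1 or in neither, with the diagonal for equal cover. The 74 chains with no counterpart lie lower on average but overlap the others widely.

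Chains built from a single replicate can be read in the other, which had no part in choosing them. Clusters of replicate 2 covered 58.5% of the span of replicate 1 chains, and clusters of replicate 1 covered 62.2% of the span of replicate 2 chains, where the replicates' own cover was 62.9% and 63.3%. A chain of replicate 2 overlapped 115 of the 159 replicate 1 chains (72.3%), and a chain of replicate 1 overlapped 115 of the 146 replicate 2 chains (78.8%). The chains of both replicates shared 3.27 Mb, a Jaccard index of 0.609. Of the clusters in replicate 1 chains, 885 of 959 (92.3%) overlapped a cluster of replicate 2, against 89.9% of all its long-arm clusters. For replicate 2 it was 843 of 887 (95.04%) against 93.2%. With 1 list on each side, these shares have no replicate check. Neither the cover nor the overlap of chains was worked out for shorter runs. As most long-arm clusters of each replicate overlapped the other, neither is read as particular to chains.

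A further 24 chains were in a replicate list but had no counterpart in the combined list, 12 in each replicate. The chains of both replicates overlapped at 3 of these places, so the 24 lay in 21 distinct stretches. In all 24 the combined list had fewer clusters over the same stretch than the replicate, 3 or 4 in place of 5 or 6, and in 22 of them these formed a single run. One example was X 4572277 to 4602380, with 6 clusters in replicate 1 and 5 in replicate 2, where the combined list had 4, the widest of 11.2 kb.

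Members were slightly wider and higher in score than other clusters of the long arms, with broad overlap. In the combined list the median width was 2396 bp in chains and 2246 bp outside, and 9.39% of members against 6.21% of other clusters were 5 kb or wider. Runs of 2 to 4 lay between, with a median of 2329 bp and 7.46% of clusters of 5 kb or wider. Clusters with no neighbour within 5000 bp had 2117.5 bp and 4.07%. In the replicates 10.3% ± 0.108 of chain clusters and 5.33% ± 0.0937 of the others were that wide (SD, n = 2). Gaps were measured from edge to edge, so at a given distance between centres a wider cluster leaves a shorter gap. The choice of members thus favours wide clusters, and how far this accounts for the widths was not tested. The median score in the combined list was 0.971 in chains, 0.876 in runs of 2 to 4 and 0.608 for clusters with no neighbour within 5000 bp. It was 1.18 in chains and 1.01 outside in replicate 1, and 1.26 and 1.03 in replicate 2. Runs of 2 to 4 had a median score of 1.10 in replicate 1 and 1.13 in replicate 2. The widest member, 19.7 kb, lay on 2R from 17583430 to 17603146 in a chain of 8 clusters, and the member of highest score (4.19) on 2R from 2548402 to 2552436, also in a chain of 8.

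Most chains held clusters on both sides of the median score. All clusters were at or above the median of the long arms, 0.807, in 14 chains, and all were below it in 4. Several clusters seldom all fall on the same side of a median, so most chains would straddle it even with scores in no order. Whether the counts of 14 and 4 differ from what chain length alone would give was not tested. At least 1 cluster of the 10% highest by score (from 2.31 up) was present in 127 chains (52.3%). Each chain holds several clusters and so has several chances to include such a cluster. Whether 52.3% exceeds what this alone would give was not tested. Of the 751 clusters in that highest 10%, 182 (24.2%) lay in chains, against 20.0% of all long-arm clusters. Neighbouring members resembled each other little in score: Spearman's rho across 1258 neighbouring pairs was 0.0950, against 0.101 across 3935 neighbouring pairs more than 5000 bp apart, again a description across clusters of 1 list. The strongest cluster was the first or last in 85 chains (35.0%), while 32.4% of all members were first or last. Median scores were 0.900 at the ends and 0.988 inside in the combined list and 1.09 and 1.20 in replicate 1, and in replicate 2 the order was opposite, with 1.29 at the ends and 1.24 inside. Scores of members matched one to one in the replicates followed each other closely (rho = 0.958 across 1143 members), as they did for clusters outside chains (rho = 0.948 across 4302).

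Positions are given on FlyBase release 5, per the file headers, and the gene table at hand is of another release, so no gene, exon or intron is assigned to any chain.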

How the data were processed

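ChIP-seq was performed for HP1b in adult fly head nuclei, with 2 ChIP samples and 2 inputs grouped by their titles. The submitters' processing notes name Bowtie 0.12.7 as aligner, and positions refer to FlyBase release 5, per the file headers. How clusters were called, at what threshold, how the inputs entered and how replicates were combined was not stated in the labels or headers. For each cluster the authors deposited a start, an end and a score of unstated formula and scale. A single start at position 0 was set to 1. The lists hold no counts, so neither depth nor counting intervals can be given.

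Enrichment rows on the long arms were chained at gaps of at most 5000 bp, in the combined list and in each replicate list, and chains of 5 or more were kept. Lists were matched by overlaps of at least 1 bp, and values of the replicate lists are given as mean ± SD. No test was made, since members were chosen by their spacing and only 2 ChIP lists exist. Members, comparisons and alternatives were chosen with earlier results of these data known. The regions named are the 10 chains with the most clusters (ties, here at 10 clusters, went to the longer span), and the longest and the highest by summed score on each arm. The extreme windows, cover values and single clusters given besides these were picked after their values were seen. Alternatives varied the gap, the chain length, the score, the joining of close clusters, the overlap and the clusters used. Chaining was tested on simulated data. Python 3.11.15, numpy 2.4.6, pandas 2.3.3, scipy 1.17.1 and matplotlib 3.10.9 were used.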

Additional observations from a re-analysis of the deposited data

How the results depend on the processing

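X stayed above the autosomal arms in chain members per Mb under every alternative run, and the numbers of chains moved with the rule. With a largest gap of 2500 bp there were 51 chains with 3.68% of the clusters, an X ratio of 2.41 and a counterpart in 46.1% of chains (mean of both replicates), against 243, 20.0%, 2.02 and 57.8% as reported. With that gap the X ratio was 1.27 in replicate 1 and 1.25 in replicate 2. At 10000 bp the values were 481, 49.4%, 1.67 and 72.9%. With chains of 4 or more they were 448, 30.9%, 1.71 and 65.96%, and with chains of 6 or more 138, 13.01%, 2.24 and 51.1%. With clusters at or above the median score of their list they were 42, 6.10%, 3.46 and 36.9%. With clusters 1000 bp or less apart joined first they were 117, 10.4%, 1.92 and 54.3%. With combined clusters that overlap both replicates they were 114, 11.9%, 1.98 and 93.9%, the last being high by construction, since the clusters were picked for lying in both replicates. In an alternative added after seeing the data, which kept combined clusters at least as wide as the narrowest replicate cluster (1301 bp), they were 202, 17.6%, 2.04 and 66.8%. Counterparts fell to 35.0% with all members in the same replicate chain and were 57.2% where a replicate chain covered 50% of the span. Without replicate 1 or 2 in turn, the single list left gave 146 to 159 chains, 14.2% to 14.8% of clusters, ratios of 1.816 to 1.822 and counterparts of 55.1% to 60.5%. Fewer clusters or a stricter rule can only lower the number of members, and a longer gap or a shorter smallest chain can only raise it. A stricter match of the same chains can only lower the counterparts. For the remaining moves the cause was not tested. No paired analysis was possible because the cluster lists used here are of the ChIP samples only, so that there is no second group to pair with them. Unknown depth limits any statement on weak clusters that bridge chains.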

Other observations

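Some chains of the combined list lay so close that they nearly formed one longer stretch. Of 238 distances between neighbouring chains of an arm, 7 were at most 10 kb and 34 at most 50 kb, 14 of the latter on X, and the median was 320.45 kb. The 14-cluster chain of X was followed after 6493 bp by a chain of 5, and the stretch of both measured 102.2 kb. Also on X, chains of 8 and 9 clusters from 6169649 to 6212515 and from 6222051 to 6271911 lay 9535 bp apart over 102.3 kb. The closest pair was on 3L, with 5 clusters each from 7820536 to 7835183 and from 7840273 to 7861345, 5089 bp apart.

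Chains reached close to some ends of the assembled arms and not to others. The nearest chain lay 2.02 Mb from the telomere end of 3R, 1.67 Mb from the centromere end of 3L and 1.22 Mb from that of 2R. On X a chain of 6 clusters ran from 71 to 24900, with 2 members found in neither replicate and longest runs of 3 clusters in both. On 2L a chain of 5 ran from 22984824 to 23004597, 6.95 kb from the centromere end of the arm, and each replicate had 4 of its clusters in 1 run. Its scores in the combined list were 1.41 to 2.89, a median of 2.27. On 3R a chain of 6 from 202965 to 230462, the nearest to the centromere end of that arm, was 1 run of 6 clusters in both replicates.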
